A study of Caenorhabditis elegans with 6 samples.

Results

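The comparison of Ponceau Red with water took in the 2 Ponceau Red arrays and the 2 water arrays of the log2 signal table and every probe set with a gene symbol, which was 27055 of 29317 probe sets. Of these, 19414 stand for coding genes and 6814 for noncoding RNAs that RefSeq leaves unclassified. All animals were whole wild-type N2 Caenorhabditis elegans, a soil nematode with transparent tissues, that the labels call young adults aged 3 days. They were kept for 48 h at 20 °C in S medium, from 16 to 18 h after hatching, with 100 µM Ponceau Red, with 100 µM tartrazine or with water alone. Ponceau Red and tartrazine are azo dyes used as food colorants. The series holds 6 arrays, 2 in each group, and the labels call the arrays of a group independent trials, without saying whether a trial was shared between groups.

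The cuticle of C. elegans is a layer of cross-linked collagens and other proteins that the epidermis secretes anew at each moult, and each larval stage ends with a burst of transcription of collagen genes, of hedgehog-related secreted proteins and of the proteases that free the old cuticle. After the last moult an adult hermaphrodite makes yolk proteins in its intestine and oocytes in its gonad. Transcripts of both programmes are therefore abundant in whole animals and change from hour to hour with age. Small heat shock proteins, detoxifying enzymes and secreted defence proteins are the usual readouts of chemical stress in this animal.

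The arrays did not stand at equal distances. Across all probe sets with a symbol the water arrays correlated at r = 0.987, and 436 probe sets lay more than 2-fold apart between them. The Ponceau Red arrays, numbered 2 and 3 in the deposited table, correlated at 0.843 and lay more than 2-fold apart at 6492 probe sets. Array 2 correlated at 0.98 and 0.991 with the tartrazine arrays and at 0.829 and 0.84 with the water arrays, while array 3 correlated at 0.918 and 0.933 with water. These correlations are across probe sets of single arrays and describe the arrays only. Adult markers differed within the Ponceau Red group: the yolk protein gene vit-2 read 1.75 and 2.22 log2 in water, 10.76 in Ponceau Red array 2 and 1.83 in array 3, and the adult cuticle collagen gene col-19 read 3.19, 3.20, 8.12 and 2.40 in the same order. The labelled adult stage is therefore not matched by these markers in both water arrays and in Ponceau Red array 3. Some tissue markers were bright in every array. The body muscle myosin gene unc-54 read 9.46 and 9.42 in water and 9.92 and 9.29 in Ponceau Red, and the synaptic gene snb-1 read 9.66, 9.62, 9.30 and 9.93. In the same order the intestinal gene ges-1 read 6.70, 6.83, 6.22 and 6.74, and the epidermal gene elt-3 read 5.67, 5.91, 4.82 and 5.79. Markers of these tissues did not all stay level. The intestinal gene ifb-2 read 9.14, 9.36, 7.51 and 8.53, lower in both Ponceau Red arrays, and act-5 read 9.66, 9.75, 8.73 and 9.65. The epidermal genes rol-6 and dpy-7, given below, were also lower in both Ponceau Red arrays, and intestinal elt-2 was lower in array 2. Other markers were dim: the neuron gene ric-19 read 3.04, 3.41, 2.71 and 3.08. The germ line gene gld-1 read 3.48, 2.76, 8.15 and 2.01. What part the age of the animals had in the differences below was not tested. In whole animals, fewer cells of a type and less RNA per cell cannot be told apart.

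A further control is implied by the authors' deposited table for Ponceau Red. The sums of squares in the authors' deposited table fit groups of 3 and 2 arrays, and solving its ratios for 1 more control gives signals with 1st and 99th percentiles of 0.73 and 9.21 log2, against 1.07 and 9.54 in water array 2. Solving for 1 more Ponceau Red array instead gives -0.98 and 10.42. The first is below the lowest signal of any array, and the second is above the 99th percentile of every array. The 1st percentile of the implied control, 0.73, is also below the 1st percentile of every array. Some of its single values lie below the lowest signal of any array, such as -0.68 for srh-118 by the authors' deposited table. The control implied by the authors' deposited table correlated at 0.756 and 0.766 with the water arrays, at 0.941 with Ponceau Red array 2 and at 0.795 with array 3. It carries 3 times the error of the ratio and may come from another RMA run, so it is given beside results as a value with no test.

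The 2 Ponceau Red arrays shared far more decreases than increases against water. Both read at least 1 log2 unit, or 2-fold, below the nearer water array at 1225 probe sets, 4.53% of those measured, and both read at least 1 log2 above it at 120, or 0.444%. Of the coding probe sets, 622 were lower in both (3.20%) and 106 were higher in both (0.546%). Differences that only 1 array showed were more frequent. Array 2 alone was higher at 2773 probe sets and lower at 1378. Array 3 alone was higher at 990 and lower at 296. The arrays went opposite ways at 135 probe sets with array 2 higher and at 151 with array 3 higher, and 19987 probe sets, 73.9%, fell in none of these classes. The scatter of each array's difference from water shows the shared decreases along the diagonal and the rest mostly along the axes.

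**Figure D1:**
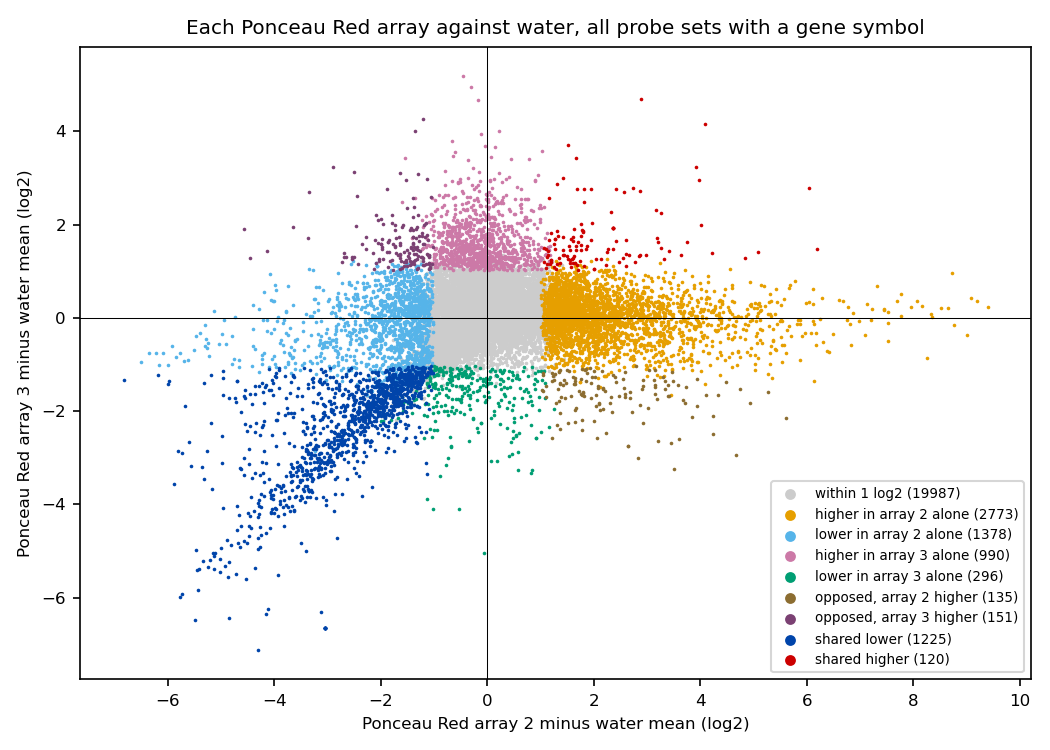
Difference of each Ponceau Red array from the mean of the 2 water arrays (log2), array 2 on the horizontal axis and array 3 on the vertical axis, 1 point per probe set with a symbol, coloured by class. The 1225 probe sets lower in both arrays run along the diagonal, and the 2773 higher in array 2 alone spread to the right near 0 on the vertical axis.

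In limma's moderated test of Ponceau Red against water over all 6 arrays, 702 probe sets (2.59% of 27055) had a Benjamini-Hochberg adjusted p under 0.05. Of these, 670 (2.48%) were lower and 32 (0.118%) were higher. Among coding probe sets 313 passed (1.61%), 284 lower (1.46%) and 29 higher (0.149%). At an unadjusted p under 0.05 there were 3931. The adjusted calls rested on the spread that the tartrazine arrays contribute and on both water arrays: limma called 0 probe sets with only the 4 Ponceau Red and water arrays, where 3227 had an unadjusted p under 0.05 and the smallest adjusted p was 0.0526. The calls were also lost when water array 1 or 2 was left out, a fit that holds a single water array. Leaving out tartrazine array 1 or 2 repeats the fit of the 4 arrays by construction, because a single tartrazine array adds no spread. Leaving out Ponceau Red array 2 gave 3017 calls and leaving out array 3 gave 7037. Each of these fits holds a single Ponceau Red array, which is assumed to vary like the water and tartrazine arrays, so they leave out the spread between the Ponceau Red arrays. With the labelled trial as a replicate block, in a second deposited table that names the trials, 226 probe sets passed, against 613 in that table without the block. Decreases then remained in body shape collagens (5), numbered col genes (7 against 23), hedgehog-related genes (7 against 10), chemoreceptors (6 against 17), C-type lectins (4 against 12) and antimicrobial peptides (1 against 3), and 0 passed in the other lists described below as holding decreases. Of the 313 coding calls, 202 stood in none of the gene lists described below, and 150 are known by a sequence name alone (47.9% of the coding calls, against 42.3% of all coding probe sets). Of the 702, the control implied by the authors' deposited table lay nearer to Ponceau Red at 683 and nearer to water at 19.

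Of the 284 coding probe sets that fell, 31 (10.9%) were collagens of the cuticle lists. Of 14 collagens known for their effect on body shape, 7 fell (50%, against 1.46% of all coding probe sets) and 0 rose, with a median difference of -3.09 log2 against 0.09 for all coding probe sets. The list median stood at -3.31 in array 2 and -2.01 in array 3. Median signals of the list were 6.86 and 6.56 log2 in water, 3.65 and 3.38 in Ponceau Red and 3.11 and 3.08 in tartrazine. The decrease was therefore not particular to Ponceau Red. The gene sqt-2, whose mutants are squat or rolling, read 8.49 and 8.31 log2 in water and 3.84 and 3.62 in Ponceau Red. In tartrazine it read 3.15 and 3.70. Both Ponceau Red arrays lay well below both water arrays, a fall of 4.67 ± 0.25 with an adjusted p of 0.00509 in limma. The error is the SE of the moderated fit over all 6 arrays, with n = 2 arrays a group. For dpy-13, a collagen whose loss shortens the body, the readings were 10.20 and 10.03 in water against 6.04 and 6.42, and for dpy-4 they were 9.20 and 8.82 against 5.02 and 5.33. The roller gene rol-6 read 6.83 and 6.70 against 3.46 and 3.41. These 4 genes fell by between 3.33 and 4.67 log2 (limma adjusted p between 0.00509 and 0.0063), and in none did the groups overlap. Groups that do not overlap were frequent in general, with Ponceau Red lower at 22.6% and higher at 24.9% of all probe sets.

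Among 151 numbered col genes, 24 fell (15.9%) and 0 rose, 45 were at least 1 log2 lower in both arrays, and the list median was -1.13 log2. Median signals of the list were 4.68 and 4.79 in water, 2.96 and 3.05 in Ponceau Red and 2.71 and 2.75 in tartrazine. The collagen gene col-41 read 7.91 and 7.65 log2 in water and 3.47 and 3.05 in Ponceau Red, and col-65 read 8.77 and 8.39 against 3.91 and 4.34. Readings of col-180 were 5.83 and 5.93 against 2.00 and 2.14. All 3 fell in limma, by 4.52 ± 0.23, 4.45 ± 0.31 and 3.81 ± 0.16 log2 (adjusted p 0.00509, 0.00747 and 0.00509). Because collagens resemble each other in sequence, a probe set may also pick up relatives. The 6 collagens of the annular furrows gave no call: dpy-7 read 6.18 and 6.18 in water, 3.81 in array 2 and 5.23 in array 3, and dpy-3 read 7.58, 7.61, 3.69 and 6.52. Array 2 was the lower of the arrays in both, and the difference was 1.66 ± 0.48 log2 lower for dpy-7 with an adjusted p of 0.218 in limma. Of 13 enzymes and partners of collagen processing, 0 passed.

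The hedgehog-related family, secreted proteins that nematodes use in the epidermis and its matrix, had 11 of 59 members that fell (18.6%) and 0 that rose, with a median of -1.23 log2. Its median was -2.13 in array 2 and -0.79 in array 3. Median signals of the family were 5.25 and 5.28 in water, 2.35 and 3.48 in Ponceau Red and 2.46 and 2.29 in tartrazine. The warthog gene wrt-4 read 7.04 and 7.34 log2 in water and 2.70 and 3.01 in Ponceau Red, and the ground-like gene grl-16 read 9.11 and 8.94 against 4.98 and 4.91. They fell by 4.33 ± 0.21 and 4.08 ± 0.19 log2 (limma adjusted p 0.00509 for both). In grd-6, a groundhog gene, the readings were 5.50 and 5.42 against 2.28 and 2.42. Of the 26 patched-related membrane proteins 1 fell: ptr-16 read 5.41 and 5.47 in water and 2.56 and 2.99 in Ponceau Red (limma adjusted p 0.00936).

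The astacin metalloproteases, some of which release the old cuticle, had 2 of 37 members that fell (5.41%, against 1.46% of all coding probe sets). The member nas-38 read 6.92 and 6.97 log2 in water and 2.79 and 3.84 in Ponceau Red, a fall of 3.63 ± 0.37 (limma adjusted p 0.0192). In tartrazine nas-38 read 2.91 and 2.83. Of 18 moulting regulators and effectors 0 passed. Their median difference from water was -1.51 log2 in array 2 and 0.03 in array 3. The zinc finger gene bed-3 read 7.12 and 7.43 in water, 4.35 in array 2 and 5.26 in array 3 (limma adjusted p 0.0597), and the period-like gene lin-42, which times moults, read 6.95, 7.02, 4.08 and 5.72 (limma adjusted p 0.19). Of 52 genes for other apical matrix proteins 1 fell, the cuticlin gene cut-4. It read 6.08 and 5.85 in water against 3.52 and 2.89. Of 66 abu and pqn genes, many of which line the pharynx, 4 fell (6.06%), including abu-12, which read 6.63 and 6.78 in water and 3.72 and 4.58 in Ponceau Red.

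**Figure D2:**
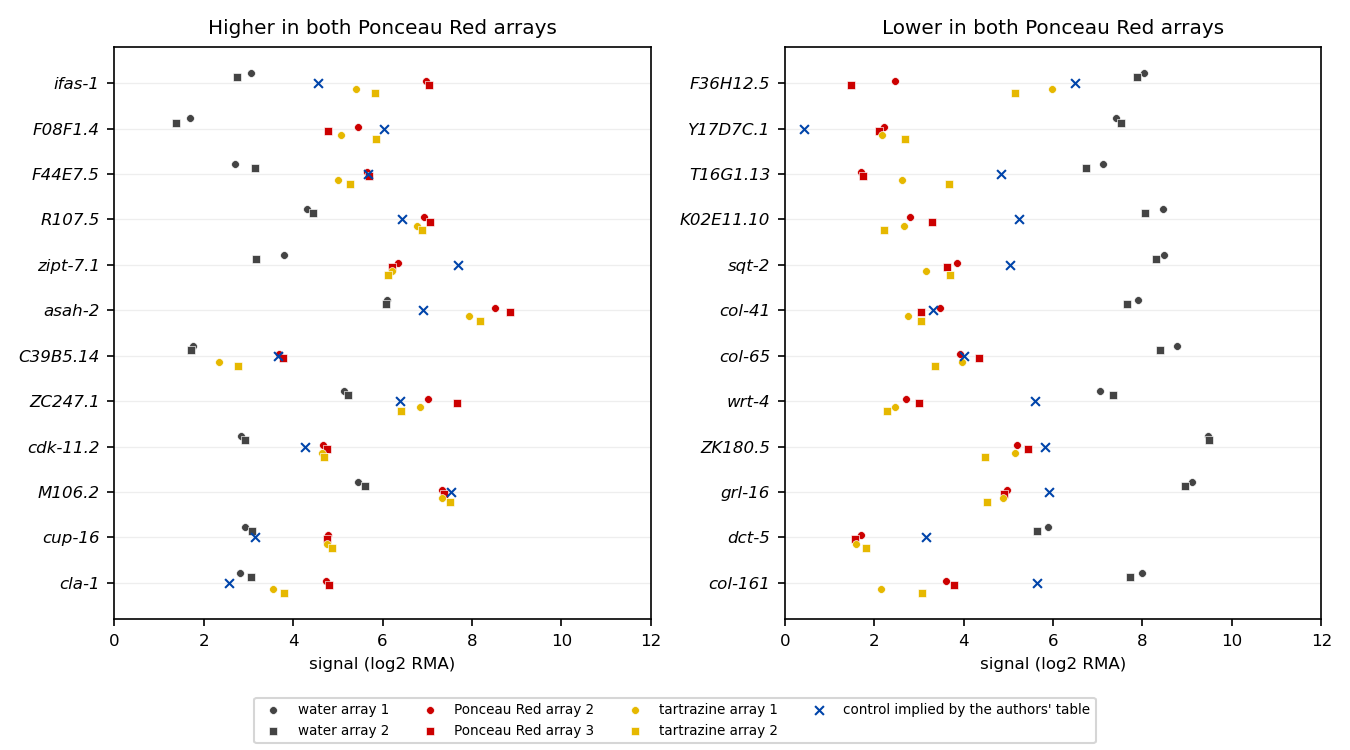
Signal (log2 RMA) of the 12 coding genes per direction that passed with the widest gap between the nearest Ponceau Red and water arrays, 1 mark per array, with crosses for the control implied by the authors' deposited table. Red and grey marks are apart in all 24 genes, and the tartrazine marks lie on the Ponceau Red side for most of them.

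The widest gaps among coding genes that fell were not all cuticle genes. The gene F36H12.5 read 8.03 and 7.88 log2 in water, 2.47 and 1.48 in Ponceau Red and 5.98 and 5.15 in tartrazine, a fall of 5.98 ± 0.44 log2 against water (limma adjusted p 0.00896). The Ponceau Red signals are near or below the array medians of 2.14 and 2.19, so the size of this fall is not exact. The Ponceau Red arrays were lowest, the tartrazine arrays lay between, and no group overlapped another. Y17D7C.1 read 7.40 and 7.51 in water, 2.21 and 2.10 in Ponceau Red and 2.17 and 2.68 in tartrazine. T16G1.13 read 7.11 and 6.73 in water and 1.71 and 1.74 in Ponceau Red, and K02E11.10 read 8.46 and 8.06 against 2.79 and 3.29. Water stood more than 4 log2 above both Ponceau Red arrays in these genes. The control implied by the authors' deposited table lay at 0.43 for Y17D7C.1, below both Ponceau Red arrays. By the authors' deposited table it lay at 4.84 for T16G1.13 and 5.23 for K02E11.10, above both Ponceau Red arrays. For hmit-1.1, a proton-coupled transporter of the osmolyte myo-inositol, the readings were 8.06 and 8.27 in water against 4.94 and 4.30, a fall of 3.55 ± 0.30 (limma adjusted p 0.0128). The osmotic stress gene osr-1 read 4.07 and 3.78 against 2.45 and 2.62 and was the 1 gene of 15 in the list of aquaporins and osmotic genes that passed. Of 116 solute carriers 1 rose and 2 fell (1.72%, near the 1.46% of all coding probe sets that fell). Besides hmit-1.1, the member that fell was pes-1, which is a forkhead transcription factor and no transporter, and the member that rose was the nucleoside transporter gene ent-6, at 4.39 and 4.61 in water and 6.20 and 6.13 in Ponceau Red.

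Readings of several chemoreceptor, lectin and protease genes were also lower in Ponceau Red. Of 1291 chemoreceptor genes, 21 fell and 0 rose, which is close to the share of all coding probe sets that fell (1.46%). The gene srg-36, a receptor for ascaroside pheromone, read 5.39 and 6.06 log2 in water and 1.53 and 1.91 in Ponceau Red. In str-7 the readings were 6.47 and 5.98 against 2.44 and 2.21. Signals above 4 log2 were present for 14 and 15 chemoreceptor probe sets in water, 5 and 18 in Ponceau Red and 3 and 5 in tartrazine. Of 241 C-type lectins 11 fell (4.56%) and 0 rose, among them clec-125, at 6.07 and 6.26 in water and 2.53 and 2.02 in Ponceau Red (limma adjusted p 0.00632). Of 28 intestinal proteases 2 fell (7.14%). The aspartyl protease gene asp-7 read 4.90 and 4.74 against 1.34 and 1.54, and the cathepsin B-like gene cpr-5 read 8.52 and 8.46 against 5.79 and 6.63.

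Fewer genes rose, and they belonged to no single list. The gene ifas-1 read 3.05 and 2.74 log2 in water, 6.98 and 7.04 in Ponceau Red and 5.40 and 5.84 in tartrazine. The groups did not overlap, and the rise over water was 4.11 ± 0.23 log2 or 17.3-fold (limma adjusted p 0.00511). Signals of zipt-7.1, a transporter of zinc, were 3.80 and 3.17 in water 6.35 and 6.21 in Ponceau Red and 6.22 and 6.12 in tartrazine, a rise over water of 2.80 ± 0.26 (limma adjusted p 0.0145). No other gene of the 32 in the metal response list passed. The acid ceramidase gene asah-2, which breaks ceramide into sphingosine and fatty acid, read 6.10 and 6.07 in water, 8.51 and 8.85 in Ponceau Red and 7.94 and 8.17 in tartrazine. It rose by 2.59 ± 0.19 log2 (limma adjusted p 0.00922), and 0 of the other 26 sphingolipid genes passed. The presynaptic active zone gene cla-1 read 2.82 and 3.06 in water, 4.74 and 4.80 in Ponceau Red and 3.54 and 3.80 in tartrazine. For the coelomocyte uptake gene cup-16 the readings were 2.92 and 3.08, 4.77 and 4.76, and 4.76 and 4.87 in the same order. The kinase gene cdk-11.2, at 2.83 and 2.92 in water, 4.66 and 4.76 in Ponceau Red and 4.65 and 4.70 in tartrazine, was the 1 of 79 cell cycle genes that passed. The cell cycle list differed between the arrays, with a median difference from water of 1.46 log2 in array 2 and -0.15 in array 3. Of its 79 genes, 43 were higher in array 2 alone.

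Of 15 small heat shock genes 1 rose, hsp-43, which read 5.20 and 5.31 log2 in water and 7.10 and 6.74 in Ponceau Red (limma adjusted p 0.0292). The heat-inducible gene hsp-16.2 read 2.17 and 2.62 in water, 4.34 and 5.15 in Ponceau Red and 4.36 and 5.19 in tartrazine. It did not pass (limma adjusted p 0.0813) and was chosen after its values were seen. Of 20 other chaperones and 18 genes of endoplasmic reticulum stress, 0 passed. Of 29 antioxidant genes 1 fell, the copper-zinc superoxide dismutase gene sod-1, at 8.42 and 8.38 in water and 7.37 and 7.23 in Ponceau Red (2.15-fold lower, limma adjusted p 0.0488). Both lysozyme and saposin genes that passed of 44 were higher: lys-7, a lysozyme of the intestine, read 6.76 and 6.90 against 8.58 and 8.29, and spp-6, a saposin-like gene, read 1.71 and 1.87 against 2.99 and 3.03. Of 65 antimicrobial peptide genes 2 fell (3.08%, against 1.46% of all coding probe sets), cnc-9 and abf-6. Of 90 infection response genes 1 fell (1.11%), irg-8, at 9.30 and 9.41 against 7.86 and 8.17.

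Calls in the detoxification lists were near the share of all coding probe sets that fell, 1.46%. Of 73 cytochrome P450 genes 1 fell (1.37%), cyp-37A1, which read 7.26 and 7.44 log2 in water and 5.40 and 5.29 in Ponceau Red (limma adjusted p 0.0182). Of 67 UDP-glucuronosyltransferases, which attach sugar acids to foreign compounds, 2 fell (2.99%). In ugt-38 the readings were 4.94 and 4.81 against 1.30 and 1.49, a fall of 3.48 ± 0.17 (limma adjusted p 0.00509), and in ugt-57 they were 3.43 and 3.50 against 1.74 and 1.93. Among 49 glutathione S-transferases, 34 short-chain dehydrogenases and 49 ABC transporters 0 passed, and of 273 nuclear hormone receptors 1 fell (0.366%), nhr-91. The flavin monooxygenase gene fmo-2 read 4.52 and 4.89 in water, 7.48 in array 2 and 5.90 in array 3, without passing, and was also chosen after its values were seen.

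Of 78 nlp neuropeptide genes 3 fell (3.85%), of which nlp-49 read 7.77 and 7.81 log2 in water and 6.13 and 6.04 in Ponceau Red (limma adjusted p 0.0128). The 31 flp neuropeptide genes had 0 calls and a median difference of -0.84 in array 2 and 0.94 in array 3. The pharyngeal myosin heavy chain genes myo-1 and myo-2 were the 2 of 25 muscle genes that fell (8%). Their readings were 5.43 and 5.59 in water against 4.08 and 3.66 for myo-1, and 3.50 and 3.59 against 2.52 and 2.56 for myo-2. Cytosolic ribosomal proteins (73), mitochondrial ribosomal proteins (71), respiratory chain subunits (47), proteasome subunits (33) and histones (66) had 0 calls, with medians between -0.45 and 0.26 log2. These medians take both Ponceau Red arrays together. Taken singly, the mitochondrial ribosomal proteins stood at 0.63 in array 2 and -0.13 in array 3, and the respiratory chain subunits at -0.45 and 0.12. The lists of basement membrane (13), insulin-like peptides (39), insulin pathway (14), TGF-beta body size pathway (15), neuron genes (22), major sperm proteins (26), other sperm genes (86), fatty acid desaturases (7) and elongases (9), fat breakdown (95), carbohydrate metabolism (29) and MATH and BATH proteins (71) also had 0 calls. The widest gaps in these lists included the TGF-beta ligand gene daf-7, which read 4.28 and 3.95 in water and 1.86 and 2.63 in Ponceau Red (limma adjusted p 0.0666), and the acyl-CoA dehydrogenase gene acdh-1, which read 5.72 and 6.13 against 2.24 and 3.88 (limma adjusted p 0.0971). In the list of 319 F-box genes 4 probe sets fell (1.25%), which is near the share of all coding probe sets that fell (1.46%). Of these, fbxc-9 read 4.95 and 5.03 in water and 2.47 and 2.55 in Ponceau Red.

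**Figure D3:**
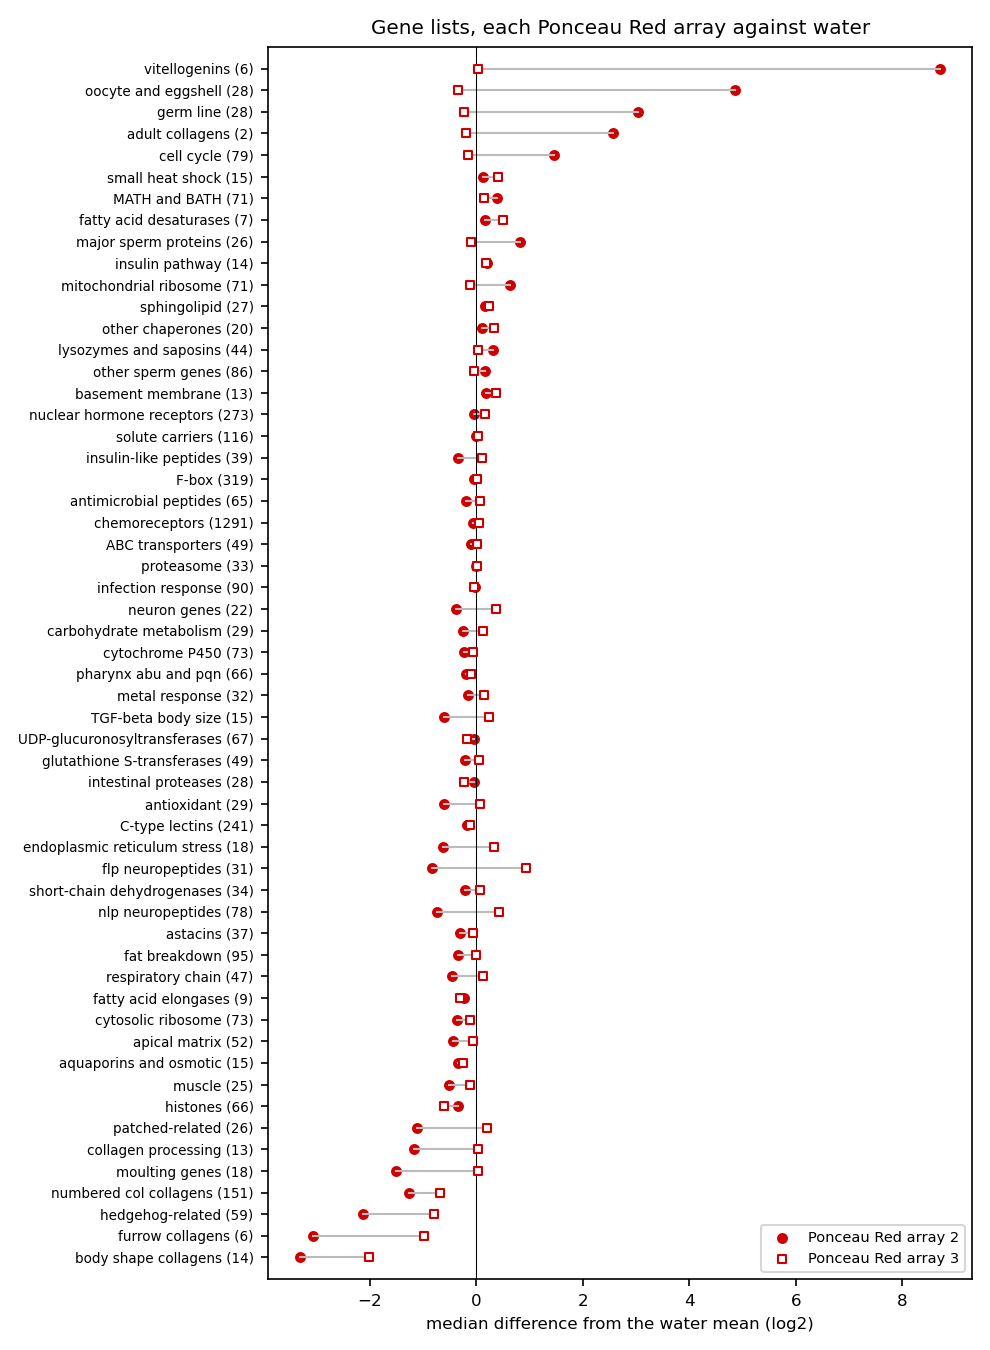
Median difference from the water mean (log2) of each gene list in Ponceau Red array 2 (filled circles) and array 3 (open squares), with the number of probe sets in brackets. Body shape collagens are low in both arrays (-3.31 and -2.01), while vitellogenins are at 8.71 in array 2 and 0.03 in array 3.

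Yolk and oocyte genes were high in Ponceau Red array 2 and in tartrazine, and near the water level in array 3. The 6 vitellogenins had a median difference from water of 8.71 log2 in array 2 and 0.03 in array 3. The yolk gene vit-6 read 1.89 and 2.11 in water, 11.01 in array 2, 1.63 in array 3 and 10.59 and 10.93 in tartrazine. The 28 oocyte and eggshell genes stood at 4.86 and -0.34 and the 28 germ line genes at 3.03 and -0.24. For puf-5, an RNA-binding regulator of oocytes, the readings were 2.50 and 1.96 in water, 8.30 in array 2 and 1.89 in array 3, and for the yolk receptor gene rme-2 they were 1.78, 1.73, 7.16 and 1.83. None of these lists had a call. The widest gaps of this kind also held F57C2.4, at 1.61 and 1.78 in water, 11.09 in array 2 and 1.92 in array 3. Some oocyte genes lay below water in array 3: spn-4, an RNA-binding protein of the early embryo, read 4.48 and 3.41 in water, 8.18 in array 2 and 1.45 in array 3.

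Other genes were low in array 2 and close to water in array 3. The collagen gene col-123 read 8.80 and 8.81 log2 in water, 2.71 in array 2 and 8.06 in array 3, and col-43 read 9.85, 9.69, 3.84 and 9.17. The C-type lectin gene clec-82 read 9.88 and 9.89 in water, 4.75 in array 2 and 10.02 in array 3. The fatty acid elongase gene elo-4 read 6.82 and 7.21 in water, 2.22 in array 2 and 6.02 in array 3. In each of these 4 genes the tartrazine arrays read below 5 log2, on the side of array 2. The transcription factor genes of the gut and pharynx differed as well: elt-2 read 7.19 and 7.60 in water, 5.45 in array 2 and 8.36 in array 3, and pha-4 read 6.18, 6.56, 3.84 and 7.64.

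Some genes were high or low in array 3 and not in array 2. The gene Y73B6BL.37 read 3.64 and 3.88 log2 in water, 3.30 in array 2 and 8.96 in array 3, and the tetraspanin gene tsp-4 read 1.68, 1.76, 1.41 and 6.67. The claudin-like gene clc-21 read 2.03 and 3.50 in water, 1.22 in array 2 and 6.19 in array 3. The tartrazine arrays stayed below 3 log2 for all 3, so that array 3 stood alone. Among genes low in array 3, col-93 read 7.49 and 7.05 in water, 7.21 in array 2 and 2.22 in array 3, and the fatty acid binding gene lbp-7 read 7.32, 7.73, 8.10 and 4.26. In tartrazine col-93 read 3.77 and 5.87, also below both water arrays, and lbp-7 read 8.05 and 8.45. The gene kreg-1, named for its regulation by the stress kinase KGB-1, read 4.24 and 4.99 in water, 1.72 in array 2 and 7.84 in array 3. Because these genes were picked for the gap between the arrays, the values are a description.

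**Figure D4:**
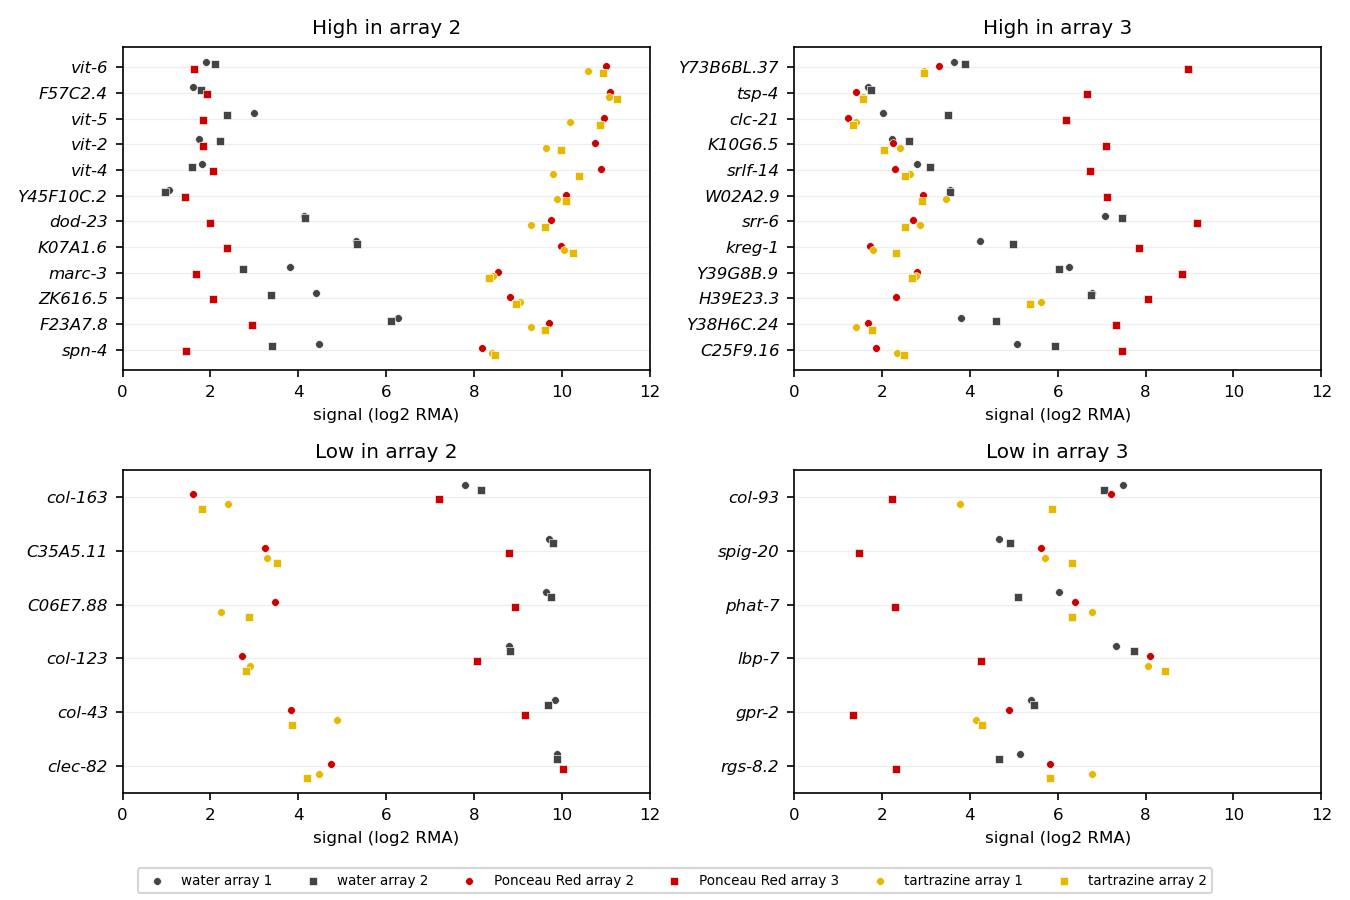
Signal (log2 RMA) of the coding genes that differ most between the 2 Ponceau Red arrays in each class, 1 mark per array. Ponceau Red array 2 (red circles) lies beside the tartrazine arrays in the left panels, and array 3 (red squares) stands apart from all other arrays in most genes of the right panels.

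Noncoding RNAs were the largest group among the probe sets that fell. Of the 6814 unclassified noncoding RNA probe sets, 373 fell and 1 rose (5.49% called), and 571 were at least 1 log2 lower in both Ponceau Red arrays (8.38%, against 3.20% of coding probe sets). Over these 571 the median signal was 4.54 and 4.28 log2 in water, 1.84 and 1.99 in Ponceau Red and 1.97 and 1.92 in tartrazine. The members were selected as low in Ponceau Red, so these medians describe them and test nothing. Over all 6814, signals above 4 log2 were counted at 671 and 550 probe sets in the water arrays, at 166 and 271 in Ponceau Red and at 130 and 137 in tartrazine, so the water arrays stood above the other 4. The same count for coding probe sets was 7239 and 7460 in water, 8082 and 7484 in Ponceau Red and 7623 and 8185 in tartrazine. The control implied by the authors' deposited table had 89 noncoding probe sets above that level and lay nearer to Ponceau Red than to water at 570 of the 571.

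Individual noncoding RNAs dropped from a clear signal to the dim end of the array. T04D3.9 read 7.56 and 7.44 log2 in water and 1.72 and 1.52 in Ponceau Red, C24H11.11 read 8.10 and 7.97 against 2.31 and 2.11, and Y38C1AA.18 read 7.42 and 7.45 against 1.99 and 1.61. These Ponceau Red signals too are as dim as the median probe set, which leaves the size of the falls inexact. Both Ponceau Red arrays read below their own medians at 326 of the 571. These RNAs lay on every chromosome, from 5.34% of the measured noncoding RNAs of chromosome I to 10.2% of those of X. Of the 571, 232 lay within a coding gene (40.6%, against 41.3% of all noncoding probe sets measured). The 201 measured host genes had medians of 4.11 and 4.01 in water and 3.35 and 4.24 in Ponceau Red. Of these host genes 3 passed, where 1.61% of all coding probe sets did. The noncoding RNA that rose, C30E1.9, read 7.43 and 7.62 in water and 9.13 and 9.17 in Ponceau Red. These noncoding RNAs were chosen after their values were seen.

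The small 5S ribosomal RNA was also lower in both Ponceau Red arrays than in water, by unequal amounts. All 13 probe sets for 5S genes, which hold only 5 distinct sets of readings, were at least 1 log2 lower in both Ponceau Red arrays. In each of these sets of readings array 3 lay below array 2 and below both tartrazine arrays. The gene rrn-4.2 read 10.30 and 9.52 log2 in water, 5.79 in Ponceau Red array 2, 3.66 in array 3 and 5.96 and 6.46 in tartrazine, and was the 1 that passed (fall of 5.19 ± 0.76, limma adjusted p 0.0488). For rrn-4.1 the readings were 8.18 and 8.45 in water against 5.27 and 1.68. The 18S gene rrn-1.1, in contrast, read 11.62 and 11.65 in water, 11.28 and 11.57 in Ponceau Red and 11.33 and 11.45 in tartrazine. These genes too were chosen after their values were seen.

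**Figure D5:**
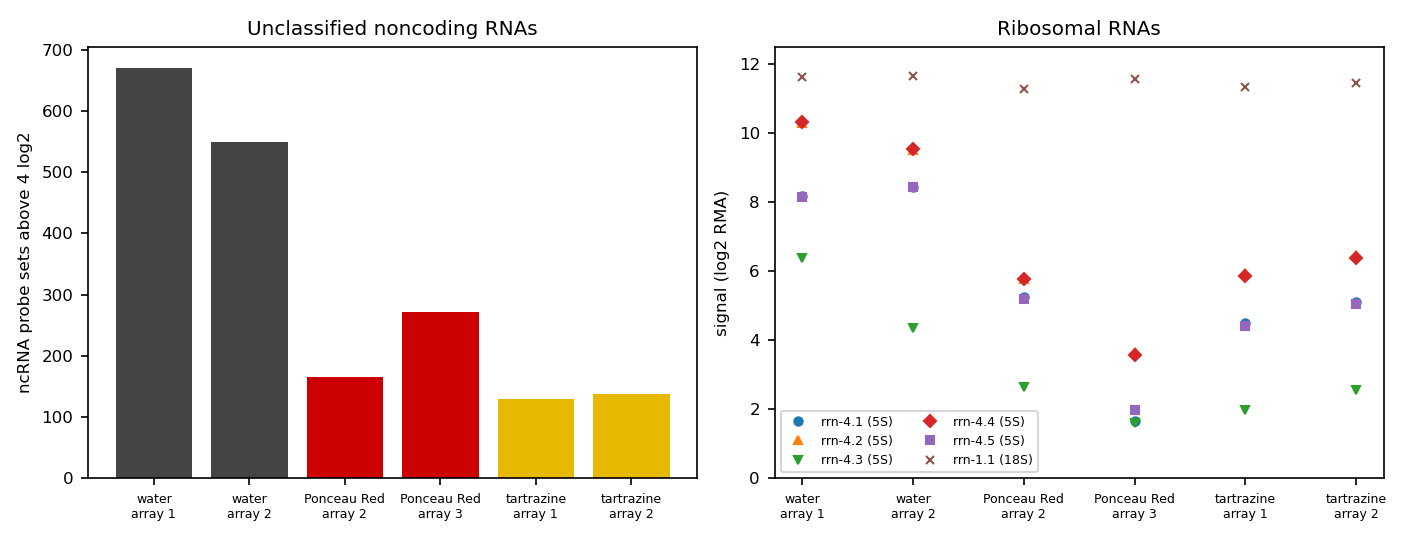
Left, number of unclassified noncoding RNA probe sets above 4 log2 in each array. Right, signal (log2 RMA) of 5 ribosomal 5S genes and of the 18S gene rrn-1.1 in each array, where the 5S genes are highest in water and the 18S gene is level across arrays.

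Some genes also stood apart from the control implied by the authors' deposited table. Of the 622 coding probe sets lower in both arrays, 27 were at least 1 log2 below that control too, and of the 106 higher in both, 15 were at least 1 log2 above it. The authors' deposited table put this control at 7.66 log2 for dpy-13, 6.39 for dpy-4, 5.03 for sqt-2 and 5.60 for wrt-4, all above the Ponceau Red readings given above and below the water readings. For hmit-1.1 it lay at 6.29 and for F36H12.5 at 6.48 by the authors' deposited table. Among genes that were higher, the authors' deposited table put it at 4.55 for ifas-1, 6.91 for asah-2, 6.71 for lys-7, 2.88 for hsp-16.2 and 2.58 for cla-1. Other genes named above did not stand apart from it. For zipt-7.1 it lay at 7.69 by the authors' deposited table, above both Ponceau Red readings. The authors' deposited table put it at 3.31 for col-41 and 4.01 for col-65, between the Ponceau Red readings, and at 4.27 for cdk-11.2, nearer to Ponceau Red than to water. The lysosomal lipase gene lipl-4 read 2.75 and 3.24 in water, 4.50 and 6.70 in Ponceau Red and 2.77 and 4.21 in tartrazine, with 2.24 for this control by the authors' deposited table. The thaumatin family gene thn-5 read 1.64 and 1.85 in water, 4.63 and 6.43 in Ponceau Red and 3.46 and 4.29 in tartrazine. These genes were chosen after their values were seen, and this comparison has no test.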

How the data were processed

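Whole-animal RNA was profiled on Affymetrix arrays from 3.5 ng of total RNA labelled as single-stranded cDNA, per the labels' protocols. The authors deposited log2 signals per probe set computed with RMA, per the file headers. Its version is not given in the sources used here. The authors also deposited a table of ratios (treated over control) with sums of squares as scores for Ponceau Red, per the file headers, from which 1 further control was solved. Its p-values were not used.

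Probe sets were named through RefSeq (WBcel235), 23508 by accession and 3301 by symbol, and 246 kept the deposited name. Arrays were grouped by their column names and tested in limma 3.58.1 under R 4.3.3 (functions lmFit and eBayes, two-sided, Benjamini-Hochberg over 27055 probe sets, no filter on low signal). The median half-width of the 95% interval was 0.64 log2, and the number of arrays limits this precision. Errors are standard errors of the fit. The fit was tested on simulated data with equal spread in all groups and no spread above that of the median probe set. The Ponceau Red arrays differed more than that, so the simulation does not cover their spread. The members, the 56 gene lists and the classes were chosen with earlier results of these data known. Genes were named by rule: the widest gaps among called coding genes, called members of lists, the widest gaps between the Ponceau Red arrays, and markers. Where the text says so, genes were chosen after their values were seen. Alternatives covered single arrays left out, centring, quantile normalization, dim probe sets, thresholds, eBayes options and a second deposited log2 table with labelled trials.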

Additional observations from a re-analysis of the deposited data

How the results depend on the processing

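The 702 calls (32 higher, 670 lower) depended on which arrays entered limma. Single arrays left out gave between 0 and 7037 calls, between 0 and 3564 higher and between 0 and 3473 lower: 0 without either water or either tartrazine array, 3017 (1362 higher, 1655 lower) without Ponceau Red array 2 and 7037 without array 3. With the 4 Ponceau Red and water arrays alone 0 were called, also from the second deposited table, where 3330 had an unadjusted p under 0.05. Leaving out a tartrazine array repeats the fit of the 4 arrays by construction, because the tartrazine array that remains adds no spread. Leaving out a Ponceau Red array takes the spread between the Ponceau Red arrays out of the fit. What else moved the counts was not tested. All 702 had an unadjusted p under 0.05 under every alternative in which they were tested. The calls that were higher numbered 17 in the brighter probe sets and 18 with trended and robust eBayes. Centring gave 529 calls (43 higher, 486 lower) and quantile normalization 596 (43 higher, 553 lower). In the second table, deviations of same-numbered trials correlated at 0.04 between water and Ponceau Red, -0.04 between the colorants and 0.17 for water with tartrazine, so the numbers were not taken to pair the samples. With the labelled trial as a replicate block, the second table gave 226 calls (5 higher, 221 lower) against 613 without it. Probe sets higher in both Ponceau Red arrays numbered 498 with a gap of 0.6 log2, 10 with 2 log2 and 223 after centring, against 120. Those lower in both numbered 1974 and 431 with these gaps, against 1225. Of 70 named genes that were called, 57 kept their call after centring and 57 after quantile normalization, 28 with the block and 0 with the 4 arrays alone, and 0 changed direction. Dim signals limit the size of decreases: both Ponceau Red arrays read below their medians at 515 of the 1225 shared decreases.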
